A study of Mus musculus with 27 samples.

Results

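Colons of Il10-/- mice kept under specific pathogen free (SPF) conditions were compared at 12 and 9 weeks of age, with 3 arrays from 12-week mice and 3 arrays from 9-week mice, 6 of the 27 arrays of the series. These arrays were found by their sample titles, and all 18193 genes with a single symbol were tested, a gene with several probe sets being read through the one whose mean over the 27 arrays was highest. The mice behind the 6 arrays shared the Il10 knockout and the SPF housing. RNA came from homogenized colon of full thickness, so mucosa, muscle and nerve layers were read together. The series also holds Il10-/- mice under conventional housing and wild-type mice under conventional housing, each at 7, 9 and 12 weeks with 3 arrays, and SPF knockouts at 7 weeks. Wild-type mice under SPF housing were not analysed here, so an age effect in SPF animals with intact Il10 could not be measured. The conventional knockouts carry a letter code in their titles and were assigned by elimination, since the titles of the other kinds of mice spell out SPF or WT. The submitters chose the 3 replicates of each group by colon length and colonic damage, which limits how far the spread within a group stands for that of the colony. Which Il10 allele and strain were used, and whether animals were pooled, is not given in the sources used here.

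Interleukin 10 is a cytokine of regulatory T cells and macrophages that restrains antigen-presenting cells and helper T cells, and mice without it can develop a colitis driven by gut bacteria. In such colitis, macrophages and epithelium release IL-1 and CXC chemokines that draw neutrophils, and T cells release interferon gamma, which switches on guanylate-binding GTPases, antigen processing and MHC class II. Inflamed colon can also lose the programmes of mature epithelium, such as water and ion transport, detoxification, mucus and fatty acid oxidation.

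The promoters of 5 genes of the interferon gamma arm are shown, and the values of these genes are given in the comparisons of that arm below. They were chosen after values were seen. The first 3 are the members of the GTPase, immunoproteasome and Th1 lists with the largest SPF differences among those whose change differed from that of conventional knockouts and whose promoter holds GAAA, any 2 bases and GAAA again, the core of an interferon-response element. The other 2 are MHC class II genes without overlap between the ages whose promoter holds CTGATTGG, the letters of the Y box found in class II promoters. Sequences run from 250 bases before to 50 bases after the start of each gene on RefSeq's GRCm38.p6 assembly, read on the gene's own strand, with the motif in capitals. Cxcl10, an interferon-induced chemokine for T cells, lies on the minus strand at chr5:92348840-92349139. Socs1, the feedback inhibitor of interferon signalling, lies on the minus strand at chr16:10785487-10785786. Gbp2, a guanylate-binding GTPase, lies on the plus strand at chr3:142620413-142620712 and holds the motif on the opposite strand. H2-Eb1 and H2-Aa encode a beta and an alpha chain of MHC class II and lie at chr17:34305617-34305916 on the plus strand and chr17:34287774-34288073 on the minus strand.
Cxcl10: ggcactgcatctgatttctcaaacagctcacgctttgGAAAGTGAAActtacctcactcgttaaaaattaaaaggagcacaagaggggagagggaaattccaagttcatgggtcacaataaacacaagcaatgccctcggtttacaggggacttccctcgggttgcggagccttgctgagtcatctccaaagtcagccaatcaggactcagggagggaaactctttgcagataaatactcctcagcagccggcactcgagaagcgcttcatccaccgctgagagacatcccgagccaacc
Socs1: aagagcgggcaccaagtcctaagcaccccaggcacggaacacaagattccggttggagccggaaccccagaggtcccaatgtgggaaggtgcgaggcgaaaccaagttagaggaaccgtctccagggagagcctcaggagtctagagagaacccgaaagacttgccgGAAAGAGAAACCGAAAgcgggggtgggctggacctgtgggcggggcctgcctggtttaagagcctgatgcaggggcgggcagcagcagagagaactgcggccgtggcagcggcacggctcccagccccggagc
Gbp2: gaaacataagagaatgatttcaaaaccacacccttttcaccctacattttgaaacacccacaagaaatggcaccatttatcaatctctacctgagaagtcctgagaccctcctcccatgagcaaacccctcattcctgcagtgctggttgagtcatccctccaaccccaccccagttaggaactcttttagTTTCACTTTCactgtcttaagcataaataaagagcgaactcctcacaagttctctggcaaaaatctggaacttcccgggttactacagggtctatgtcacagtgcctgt
H2-Eb1: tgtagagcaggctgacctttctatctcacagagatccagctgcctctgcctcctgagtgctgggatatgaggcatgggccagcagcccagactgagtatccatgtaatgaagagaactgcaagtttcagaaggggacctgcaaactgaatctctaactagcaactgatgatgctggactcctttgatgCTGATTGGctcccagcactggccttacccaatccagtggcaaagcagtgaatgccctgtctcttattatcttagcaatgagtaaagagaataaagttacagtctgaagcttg
H2-Aa: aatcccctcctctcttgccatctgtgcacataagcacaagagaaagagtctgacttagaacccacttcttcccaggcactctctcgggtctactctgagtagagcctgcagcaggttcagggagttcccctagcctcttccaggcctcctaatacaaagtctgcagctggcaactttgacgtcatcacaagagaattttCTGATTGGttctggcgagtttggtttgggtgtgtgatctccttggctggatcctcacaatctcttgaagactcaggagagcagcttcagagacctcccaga
The interferon-response motif starts 213 bases before the start of Cxcl10, 83 and 77 bases before that of Socs1 in overlapping matches, and 59 bases before that of Gbp2. The Y box letters start 62 bases before the start of H2-Eb1 and 51 bases before that of H2-Aa. The 3 interferon lists had 41 measured members, 33 of them with a promoter available. Searched on both strands, the interferon-response motif was found in at least 1 promoter of 12 of these 33 genes. Of all 32851 promoters, 1131 held it (3.44%). CTGATTGG was found for 3 of the 7 genes with a promoter among the 10 measured MHC class II genes, and in 1346 of all promoters (4.1%). List members were counted by gene, with any promoter sufficing, and the background by single promoter, so these shares are not like for like. A match is a description of these letters and not evidence of a bound site.

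Values are deposited log2 expression, so a difference of 1 is a fold of 2, and differences are given as 12 weeks minus 9 weeks with the standard error (SE) of the fit. The SE rests on a spread per gene pooled over all groups of the series, so it can be too small where the SPF groups spread more. Array medians lay between 4.92 and 4.99 over all 27 arrays. Among the SPF arrays, replicate 2 at 12 weeks and replicate 3 at 9 weeks stood apart from their groups. Over all genes, Spearman's rho of 12-week replicate 2 was 0.993, 0.994 and 0.989 with the 9-week arrays, and 0.977 and 0.969 with 12-week replicates 1 and 3. The 9-week replicate 3 had values of 0.989, 0.989 and 0.982 with the 12-week arrays, and 0.983 and 0.988 with its own group. These correlations are across genes, which are not independent. The 3' minus 5' signal of the actin control probes, a sign of RNA breakdown, was 0.48, 0.50 and 0.60 at 12 weeks, and 0.53, 0.52 and 0.38 at 9 weeks, with the lowest value on 9-week replicate 3. For the Gapdh control probes it was 0.06, 0.0 and 0.06 at 12 weeks, and -0.03, -0.04 and 0.02 at 9 weeks, with 12-week replicate 2 the lowest of its group and 9-week replicate 3 the highest of its own. The part of RNA quality in the results was not tested. Labels of both arrays were kept as given, no array was left out of the comparison, and list counts without 12-week replicate 2 and without 9-week replicate 3 are given with most lists.

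Il10 itself read 7.05, 5.33 and 7.09 log2 units at 12 weeks, against 5.58, 5.42 and 5.94 at 9 weeks in SPF knockouts. Wild types read 3.59 to 3.80 at 12 weeks and 3.51 to 3.70 at 9 weeks, below all 6 SPF arrays. Where the probe set lies relative to the disrupted part of the gene is not given in the sources used here, so this signal is no check of the genotype labels. The difference of 0.84 ± 0.29 between the ages missed the threshold (adjusted p = 0.136). Epithelial genes were present on every array: Krt8, a keratin of simple epithelium, read 13.60, 13.70 and 13.54 at 12 weeks, against 13.73, 13.75 and 13.82 at 9 weeks, and Cdh1, the epithelial cadherin, read 11.62, 11.65 and 11.59, against 11.77, 11.80 and 11.81. These 2 genes were chosen after their values were seen and do not stand for the epithelium as a whole. In the colon epithelium list, which holds Krt8 but not Cdh1, 13 of 14 genes had differences below 0, with a median of -0.26. At an unadjusted p under 0.05, 7 were lower and 0 higher. The list mean was 11.39, 11.99 and 11.14 at 12 weeks, against 12.11, 12.0 and 12.06 at 9 weeks.

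No gene passed an adjusted p of 0.05 between 12-week and 9-week SPF knockouts (0 of 18193, 0%). The smallest adjusted p was 0.0684, and 310 genes lay under 0.1. At an unadjusted p under 0.05 there were 3431 genes (18.9%), 1753 of them higher at 12 weeks (9.64%) and 1678 lower (9.22%). The ages differed by at least 1 log2 unit in 190 genes that read higher at 12 weeks (1.04%) and 201 that were lower (1.10%). All 3 arrays at 12 weeks lay beyond all 3 arrays at 9 weeks in 1175 genes on the high side (6.46%) and 780 on the low side (4.29%). Only 22 genes (0.121%) and 12 genes (0.0660%) met both conditions.

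The count turned on the arrays that stood apart. Without 12-week replicate 2, 3593 genes were called, 1788 higher (9.83%) and 1805 lower (9.92%). Without 9-week replicate 3, 1434 genes were called, 619 higher (3.40%) and 815 lower (4.48%). Without any of the other 4 arrays the count was 0. Among the 190 genes higher by at least 1 log2 unit, 12-week replicate 2 was the 12-week array nearest to the 9-week group in 184, and 9-week replicate 3 was the 9-week array nearest to the 12-week group in 176. Among the 201 lower genes those counts were 193 and 188. What set these arrays apart was not tested. Both were singled out on these same values as lying near the other age. Counts and p-values without them therefore describe the weight of each array and are no independent support for a difference. In what follows, members of a list are counted as apart where all 3 arrays at 12 weeks lay beyond all 3 at 9 weeks. The background for these counts is 6.46% of all genes on the high side and 4.29% on the low side. For counts at an unadjusted p under 0.05 it is 9.64% higher and 9.22% lower. The 4 percentages for leaving out an array are the background for the counts called without it.

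**Figure D1:**
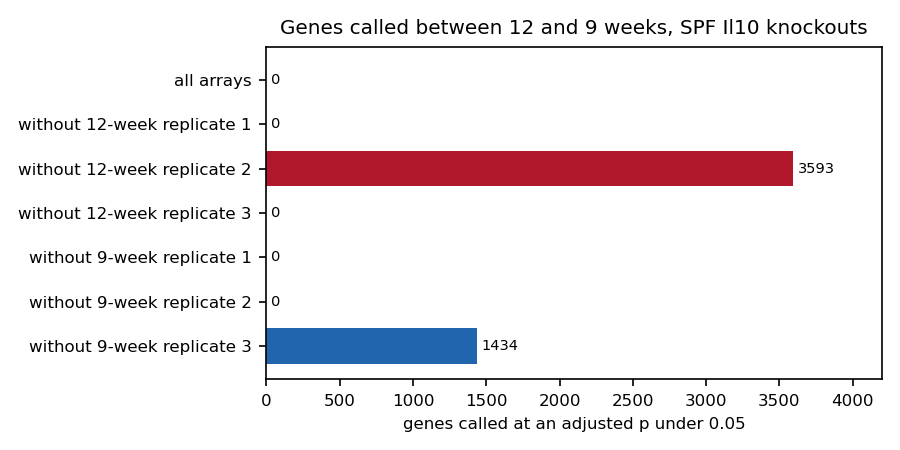
Number of genes called between 12-week and 9-week SPF knockouts at an adjusted p under 0.05 (horizontal axis), with all arrays and without each of the 6 arrays in turn (rows). The bar without 12-week replicate 2 reaches 3593 and the bar without 9-week replicate 3 reaches 1434, while the other 5 bars stand at 0.

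**Figure D2:**
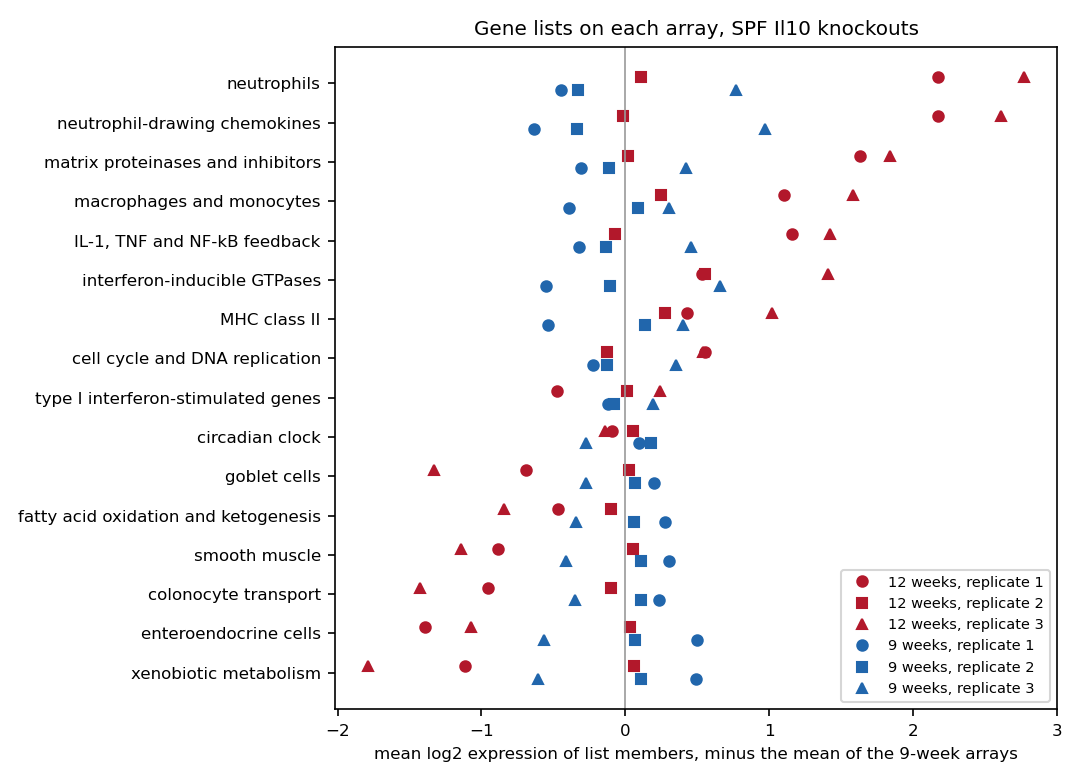
Mean log2 expression of the members of 16 gene lists on each of the 6 arrays, minus the mean of the 9-week arrays (horizontal axis). Red marks are 12-week mice and blue marks are 9-week mice, with circle, square and triangle for replicates 1, 2 and 3. The red square (12-week replicate 2) sits near 0 in most lists, and the blue triangle (9-week replicate 3) lies toward the other 12-week arrays.

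Neutrophil markers had the highest median difference of the 57 lists. Of 17 measured neutrophil markers none was called, 14 were higher at an unadjusted p under 0.05, and the median difference was 1.67, against 0.02 over all genes. The mean of these markers was 6.38, 4.32 and 6.98 at 12 weeks, against 3.76, 3.88 and 4.98 at 9 weeks. Thus 12-week replicate 2 read below 9-week replicate 3, and the groups overlapped. S100a8 and S100a9 encode the chains of calprotectin, a protein that neutrophils carry in bulk. S100a8 read 12.06, 7.41 and 13.34 at 12 weeks, against 3.84, 4.63 and 9.66 at 9 weeks, a mean difference of 4.89 ± 1.12 (29.7-fold, adjusted p = 0.0909). S100a9 read 11.97, 6.30 and 13.01, against 3.56, 4.16 and 8.74 (4.94 ± 1.18). In both, a single 9-week array exceeded a single 12-week array. With 12-week replicate 2 left out, an array singled out on these same values, the adjusted p was 4.73e-05 for S100a8 and 1.55e-05 for S100a9. Clec4e, a lectin receptor of activated myeloid cells, read 7.63, 3.13 and 8.08, against 2.77, 2.76 and 3.67 (3.21 ± 0.77). After removal of 12-week replicate 2, 15 of the 17 markers were called, and without 9-week replicate 3, 12 were. In bulk tissue, more cells of a type and more RNA per cell cannot be told apart.

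Some granule genes of neutrophils did not overlap between the ages. Ngp, a granule protein of maturing neutrophils, read 5.93, 3.87 and 6.67 at 12 weeks, against 3.28, 3.46 and 3.74 at 9 weeks (1.99 ± 0.39, adjusted p = 0.0772). Mmp8, neutrophil collagenase, read 5.37, 3.17 and 5.31, against 2.92, 2.95 and 2.96 (1.67 ± 0.33, adjusted p = 0.0772). All 12-week arrays lay above all 9-week arrays in both genes, with replicate 2 the lowest by over 1 log2 unit. Camp, the cathelicidin peptide, was apart by a narrow gap, at 4.67, 4.60 and 5.13, against 4.45, 4.15 and 4.56 (0.41 ± 0.15, adjusted p = 0.151). One wild-type array at 9 weeks also read 4.60. Cxcr2, the receptor for CXC chemokines of neutrophils, likewise differed by 0.41 and was apart. In all, 4 of the 17 markers were apart on the high side and 0 on the low side. These 4 genes were chosen after their values were seen.

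Chemokines that draw neutrophils followed the same arrays. Their list also held the receptors Cxcr2 and Csf3r, which are in the neutrophil marker list too, and the growth factor Csf3. All 8 measured members of this list were higher at 12 weeks on average, 6 at an unadjusted p under 0.05, with a median of 1.40. Cxcl5, an epithelial chemokine, read 10.10, 6.86 and 11.09 at 12 weeks, against 4.47, 4.97 and 8.90 at 9 weeks (3.24 ± 0.87, 9.43-fold, adjusted p = 0.0971). Cxcl2 read 8.20, 3.79 and 9.13, against 2.87, 3.09 and 5.46 (3.23 ± 0.85), and Cxcl3 read 6.52, 2.79 and 7.95, against 2.60, 2.95 and 5.38 (2.11 ± 0.82). For all 3 chemokines 12-week replicate 2 lay below 9-week replicate 3. In the fit without 12-week replicate 2, 7 of 8 members were called, and without 9-week replicate 3, 5 were.

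IL-1 and IL-6 signalling and matrix breakdown showed differences of the same kind. Il1b, the main secreted IL-1, read 9.88, 6.08 and 10.32 at 12 weeks, against 5.0, 5.41 and 7.09 at 9 weeks (2.93 ± 0.72, 7.61-fold, adjusted p = 0.0922). Il1r2, the decoy receptor for IL-1, read 8.07, 4.64 and 7.93, against 4.70, 4.78 and 5.84 (1.77 ± 0.55). In the list of IL-1, TNF and NF-kB feedback genes, 12 of 18 were higher at an unadjusted p under 0.05, with a median of 0.76. When 12-week replicate 2 was dropped, 12 were called, and without 9-week replicate 3, 10 were. Il6 read 7.34, 2.79 and 5.94, against 2.70, 2.63 and 3.64 (2.37 ± 0.62), so 12-week replicate 2 stood at the 9-week level. Socs3, the feedback inhibitor of IL-6 receptor signalling, read 11.25, 9.96 and 11.12, against 9.27, 9.38 and 10.55 (1.04 ± 0.45).

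Il11, an IL-6 family cytokine made by stromal cells, was among the 3 genes with the smallest adjusted p. It read 7.19, 5.41 and 6.96 at 12 weeks, against 4.63, 4.57 and 4.95 at 9 weeks (1.81 ± 0.31, adjusted p = 0.0684). All 12-week arrays lay above all 9-week arrays, with 12-week replicate 2 nearest to the 9-week group. Of 16 measured genes of the IL-6 family, IL-10 and STAT3 list, 11 were higher at an unadjusted p under 0.05. On the high side 2 were apart, against 6.46% of all genes. Without 12-week replicate 2, 11 were called, and without 9-week replicate 3, 6 were.

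Matrix proteinases and their inhibitors had a median of 1.21, with 13 of 16 members higher at an unadjusted p under 0.05 and 8 by at least 1 log2 unit. Mmp3, stromelysin 1, read 8.74, 5.72 and 9.80 at 12 weeks, against 4.34, 4.32 and 6.91 at 9 weeks (2.89 ± 0.72). Mmp10, stromelysin 2, read 9.09, 6.91 and 9.65, against 4.98, 5.83 and 7.43 (2.47 ± 0.59). Mmp13, a collagenase, read 9.13, 6.78 and 9.51, against 5.14, 5.79 and 7.37 (2.38 ± 0.55). In each of these, 12-week replicate 2 lay above 9-week replicates 1 and 2 and below 9-week replicate 3. Mmp8 was the only member of the list apart. The fit without 12-week replicate 2 called 13 of the 16 higher, and that without 9-week replicate 3 called 8 higher and 1 lower. Collagens and other matrix proteins had a median of -0.04, with 2 of 19 members higher and 4 lower, by the unadjusted test. Lox, which cross-links collagen, read 7.48, 5.98 and 7.81, against 5.94, 6.34 and 6.05 (0.98 ± 0.36).

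**Figure D3:**
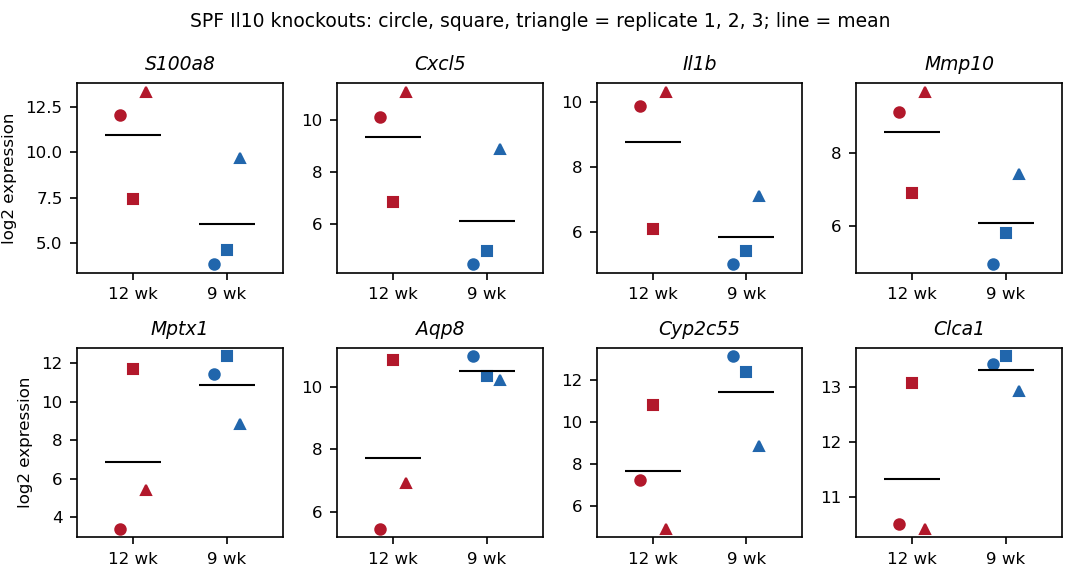
Log2 expression on each array (vertical axis, a separate scale per panel) of 4 inflammatory genes (top) and 4 epithelial genes (bottom), 12-week mice in red on the left and 9-week mice in blue on the right. Circle, square and triangle are replicates 1, 2 and 3, and lines are group means. In the top row 12-week replicate 2 lies below 9-week replicate 3, as for S100a8 at 7.41 and 9.66, and in the bottom row it reads 11.73 for Mptx1, near the 9-week arrays.

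Genes of the interferon gamma arm had medians above 0 in each of their 4 lists, and no member was called. Ifng read 6.75, 3.86 and 7.41 at 12 weeks, against 2.76, 3.31 and 4.56 at 9 weeks (2.46 ± 0.69, adjusted p = 0.0971). Its chemokine targets were wide apart within the groups: Cxcl9 read 11.05, 9.24 and 11.92, against 7.08, 8.47 and 10.49 (2.06 ± 0.69), and Cxcl10 read 9.35, 7.19 and 9.67, against 5.63, 6.47 and 8.60 (1.84 ± 0.60). Socs1, chosen after its values were seen, read 7.33, 5.77 and 7.61, against 4.67, 5.06 and 6.22 (1.58 ± 0.41). Of 16 measured genes of the Th1 and interferon gamma list, 8 were higher at an unadjusted p under 0.05 and 2 were apart, with a median of 0.36. With 12-week replicate 2 left out, 9 were called, and without 9-week replicate 3, 5 were.

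All 10 measured interferon-inducible GTPases, which attack the vacuoles of intracellular microbes, were higher at 12 weeks on average, with differences of 0.44 to 1.21 and a median of 0.87. Their mean was 9.62, 9.64 and 10.49 at 12 weeks, against 8.53, 8.98 and 9.74 at 9 weeks, so that 12-week replicate 2 matched replicate 1 and only 9-week replicate 3 overlapped. Gbp2 read 10.68, 10.13 and 11.55, against 8.98, 9.39 and 10.36 (1.21 ± 0.39, adjusted p = 0.123). Gbp6 read 9.18, 8.86 and 10.49, against 7.90, 8.27 and 9.14 (1.07 ± 0.38). None of the 10 was apart. After removal of 12-week replicate 2, 5 were called, and without 9-week replicate 3, 6 were.

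Genes of the immunoproteasome and of MHC class I loading had a median of 0.29, with 8 of 15 higher at an unadjusted p under 0.05. On the high side 1 was apart, against 6.46% of all genes. Nlrc5, the transactivator of class I genes, read 7.99, 7.51 and 8.61 at 12 weeks, against 5.96, 7.10 and 7.86 at 9 weeks (1.07 ± 0.39). Tap1, the peptide transporter, read 9.68, 9.38 and 10.01, against 8.15, 8.64 and 9.63 (0.89 ± 0.29). Psmb8, an immunoproteasome subunit, read 10.65, 10.31 and 10.93, against 9.33, 10.0 and 10.40 (0.72 ± 0.27). Each of these overlapped through 9-week replicate 3 alone. Without that array 7 of 15 were called, and without 12-week replicate 2, 4 were.

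MHC class II was the list with the highest share of members apart, 5 of 10, against 6.46% of all genes. These genes present peptides from outside the cell to helper T cells. H2-Eb1 read 11, 10.89 and 11.26 at 12 weeks, against 9.50, 10.63 and 10.61 at 9 weeks (0.80 ± 0.30, adjusted p = 0.165). H2-Aa read 11.85, 12.16 and 12.04, against 10.71, 11.74 and 11.65 (0.65 ± 0.28), and H2-Ab1 read 11.01, 10.92 and 11.11, against 9.59, 10.65 and 10.67 (0.71 ± 0.32). Cd74, the invariant chain that escorts class II molecules, read 12.83, 12.66 and 12.75, against 11.36, 12.44 and 12.49 (0.65 ± 0.37, adjusted p = 0.344). H2-DMa, which loads peptide onto class II, read 9.19, 9.31 and 9.53, against 7.73, 8.72 and 8.91 (0.89 ± 0.32). In all 5 genes, 9-week replicate 1 was the lowest array, and the 12-week arrays lay close together. Ciita, the master regulator of class II, read 5.55, 5.91 and 6.35, against 4.32, 5.0 and 5.80 (0.90 ± 0.29) and overlapped. The median of the list was 0.65, and its mean was 9.02, 8.87 and 9.61 at 12 weeks, against 8.05, 8.73 and 8.99 at 9 weeks, so over the whole list 12-week replicate 2 lay below 9-week replicate 3. In the fit without 12-week replicate 2, only 1 member was called, and without 9-week replicate 3, 2 were. H2-Aa, H2-Ab1 and Cd74 were chosen after their values were seen.

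**Figure D4:**
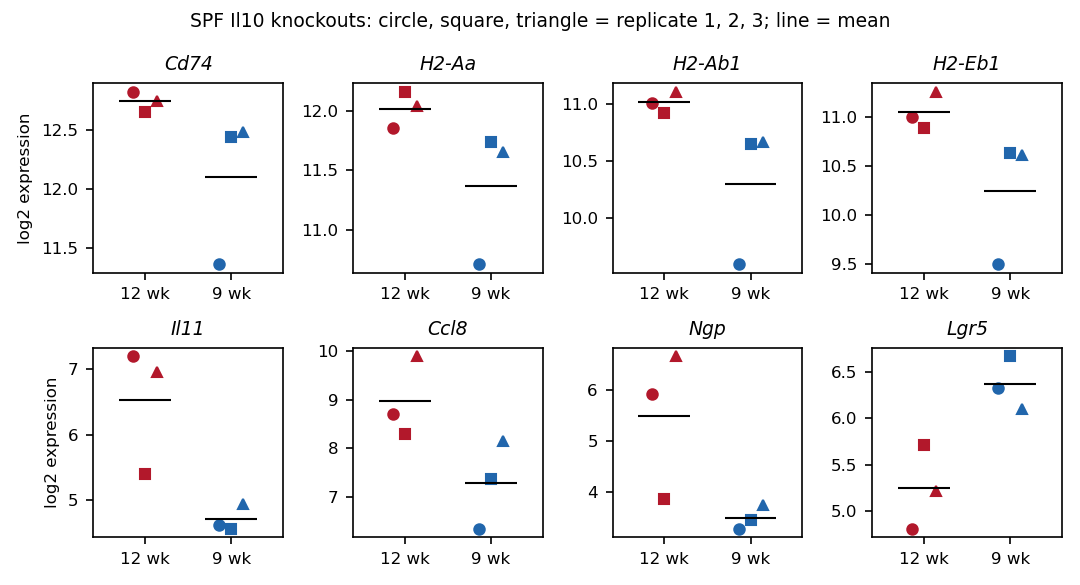
Log2 expression on each array (vertical axis, a separate scale per panel) of 8 genes whose 3 arrays at 12 weeks (red, left) lie beyond all 3 at 9 weeks (blue, right). Circle, square and triangle are replicates 1, 2 and 3, and lines are group means. The 4 MHC class II genes have 12-week arrays close together and a low 9-week replicate 1, while Il11 and Ngp have 12-week replicate 2 just above the 9-week arrays.

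Genes stimulated by type I interferon did not share this pattern. Their median was -0.08, and by the unadjusted test 1 of 25 was higher and 0 lower. Ifit1, an inhibitor of viral RNA translation, read 6.49, 8.53 and 8.08 at 12 weeks, against 8.77, 8.50 and 8.30 at 9 weeks (-0.83 ± 0.45). Irf7, the regulator of interferon alpha genes, read 7.65, 8.60 and 8.31, against 9.11, 8.81 and 8.29 (-0.55 ± 0.28). Zbp1, a nucleic acid sensor, read 8.65, 8.75 and 9.14, against 7.82, 8.15 and 8.72 (0.61 ± 0.22). For Ifit1 and Irf7 it was 12-week replicate 1, not replicate 2, that was the lowest array. When 12-week replicate 2 was dropped, 0 of the 25 were called, and without 9-week replicate 3, 1 was.

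Macrophage and monocyte markers were higher at an unadjusted p under 0.05 in 21 of 25 genes, with a median of 1.0 and 5 apart. Their mean was 7.88, 7.02 and 8.36 at 12 weeks, against 6.38, 6.86 and 7.08 at 9 weeks, a small overlap. Ms4a6d, a macrophage membrane protein, read 8.14, 6.14 and 8.85, against 5.04, 5.42 and 6.39 (2.09 ± 0.44, adjusted p = 0.0909). Marco and Msr1 are scavenger receptors that take up microbes and modified lipoproteins. Marco read 6.20, 3.90 and 5.55, against 3.22, 3.36 and 4.19 (1.63 ± 0.41), and Msr1 read 7.26, 5.58 and 7.50, against 4.81, 5.26 and 5.79 (1.5 ± 0.33). Itgam, the alpha chain of the myeloid integrin Mac-1, read 5.93, 4.07 and 5.71, against 3.82, 3.62 and 3.92 (1.45 ± 0.31) and was apart. Cd163, a receptor of resident macrophages for haemoglobin complexes, read 5.93, 5.86 and 5.71, against 5.46, 5.67 and 4.70 (0.55 ± 0.29). It was apart with no low value in 12-week replicate 2. Itgam and Cd163 were chosen after their values were seen. Without 12-week replicate 2, 20 markers were called, and without 9-week replicate 3, 17 were.

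Complement genes, many of them made by macrophages and stroma, were apart in 5 of 13. The median was 0.54, and 9 were higher at an unadjusted p under 0.05. C1qa, a chain of the first component, read 9.16, 8.85 and 9.85 at 12 weeks, against 8.14, 8.73 and 8.75 at 9 weeks (0.75 ± 0.23, adjusted p = 0.114). C1ra and C1s1 encode the proteases of that component: C1ra read 8.19, 7.95 and 9.07, against 7.12, 7.59 and 7.87 (0.88 ± 0.27), and C1s1 read 8.60, 8.31 and 9.51, against 7.68, 8.25 and 8.22 (0.75 ± 0.22). Serping1, their inhibitor, read 9.41, 9.32 and 9.89, against 8.94, 9.31 and 8.95 (0.47 ± 0.15). Its 12-week replicate 2 and 9-week replicate 2 were nearly equal. C1qa and Serping1 were chosen after their values were seen. With 12-week replicate 2 left out, 9 members were called, and without 9-week replicate 3, 5 were.

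Among CC chemokines and receptors, 4 of 17 were apart on the high side and 1 on the low side. The shares of all genes were 6.46% and 4.29%. Ccl8, a monocyte chemokine chosen after its values were seen, read 8.71, 8.30 and 9.89 at 12 weeks, against 6.35, 7.38 and 8.16 at 9 weeks (1.67 ± 0.39). Ccl5, a chemokine of T cells and macrophages, read 8.35, 7.03 and 9.09, against 5.56, 6.73 and 7.02 (1.72 ± 0.37). Ccl2, the main monocyte chemokine, read 8.01, 5.81 and 8.70, against 5.21, 5.09 and 6.36 (1.96 ± 0.45), and its groups overlapped. Ccr1, a receptor of myeloid cells, read 7.77, 6.02 and 8.52, against 5.24, 5.60 and 6.41 (1.69 ± 0.40). At an unadjusted p under 0.05, 9 of the list were higher and 2 lower. After removal of 12-week replicate 2, those counts of called genes were 9 and 2, and without 9-week replicate 3 they were 6 and 2.

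Lymphocyte lists differed less. All 16 measured T cell markers had differences above 0 (median 0.29), 4 of them at an unadjusted p under 0.05 and none apart. Lat, a T cell receptor adaptor, read 6.01, 4.94 and 6.20 at 12 weeks, against 4.34, 4.93 and 5.01 at 9 weeks (0.95 ± 0.22, adjusted p = 0.0909). Gzma and Gzmb, proteases of killer cells, differed by 1.21 ± 0.38 and 1.08 ± 0.31, and 2 of 11 cytotoxic markers lay under an unadjusted p of 0.05. The regulatory T cell and checkpoint list had 2 genes apart, both of them checkpoint genes. Cd274, which encodes PD-L1, read 7.25, 6.47 and 7.62, against 5.66, 6.09 and 6.44 (1.05 ± 0.25), and Ctla4 read 4.84, 4.32 and 5.73, against 3.73, 3.93 and 4.18 (1.01 ± 0.26). In both, 12-week replicate 2 was the lowest 12-week array. Foxp3, the regulator of regulatory T cells, chosen after its values were seen, read 3.41, 3.21 and 2.70, against 3.23, 3.26 and 3.30. Of the 11 genes of that list, 6 were higher at an unadjusted p under 0.05. In the fit without 12-week replicate 2, 7 T cell markers, 3 cytotoxic markers and 6 genes of the regulatory list were called. Without 9-week replicate 3 those counts were 1, 2 and 3.

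B cell, plasma cell and dendritic cell markers had medians of 0.27, 0.05 and 0.16. At an unadjusted p under 0.05 there were 0 of 13 B cell markers, 0 of 11 plasma cell markers and 3 of 12 dendritic cell markers. Cxcl13, the chemokine of B cell follicles, read 9.88, 6.63 and 9.77 at 12 weeks, against 7.37, 7.80 and 8.21 at 9 weeks (0.97 ± 0.53), with 12-week replicate 2 the lowest of all 6 arrays. Bank1, a B cell adaptor, read 5.26, 4.52 and 6.82, against 4.77, 4.72 and 5.63. The fit without 12-week replicate 2 called 2 B cell, 0 plasma cell and 3 dendritic cell markers, and that without 9-week replicate 3 called 0, 1 and 0. Mast cell and eosinophil markers had a median of -0.02, with 1 of 14 higher. That gene was Hdc, the histamine-forming enzyme, at 5.83, 4.32 and 6.88, against 4.32, 4.28 and 5.05 (1.13 ± 0.39).

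Cytokines of the Th17 and Th2 arms were mixed. Il17a read 5.85, 3.78 and 5.61 at 12 weeks, against 3.85, 3.72 and 4.31 at 9 weeks (1.12 ± 0.35). Il22ra2, the soluble antagonist of IL-22, was apart on the low side at 4.07, 5.23 and 5.88, against 6.14, 6.06 and 6.56 (-1.19 ± 0.30, adjusted p = 0.0922), and its lowest array was 12-week replicate 1. Il33, an alarmin of stroma and epithelium, read 8.26, 6.05 and 9.49, against 5.55, 5.62 and 7.71 (1.64 ± 0.57). Chil3, a chitinase-like protein of myeloid cells, read 9.29, 2.84 and 7.88, against 2.81, 2.91 and 4.33 (3.32 ± 0.88), so 12-week replicate 2 stood at the 9-week floor. Counts at an unadjusted p under 0.05 were 1 higher and 1 lower of 7 Th17 genes, and 5 higher of 12 Th2 genes. When 12-week replicate 2 was dropped, the called counts were the same numbers, 1 and 1, and 5, and without 9-week replicate 3 they were 1 and 0, and 3.

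Enzymes that make reactive and lipid mediators gave differences in both directions. Nos2, inducible nitric oxide synthase, read 7.28, 5.91 and 8.02 at 12 weeks, against 4.67, 5.37 and 6.71 at 9 weeks (1.48 ± 0.45). Cybb, the catalytic chain of the phagocyte oxidase, read 6.80, 5.53 and 7.89, against 4.63, 5.19 and 6.0 (1.46 ± 0.45). Ptgs2, inducible cyclooxygenase, read 8.73, 6.14 and 8.17, against 5.65, 6.0 and 6.37 (1.67 ± 0.42), while Hpgd, which breaks down prostaglandins, read 8.73, 10.57 and 7.64, against 10.77, 10.60 and 9.39 (-1.27 ± 0.46). Ido1, which opens the kynurenine pathway, read 11.20, 10.67 and 11.69, against 9.44, 9.52 and 10.72 (1.29 ± 0.56). At an unadjusted p under 0.05, 7 of 16 redox genes were higher and 1 lower, 3 of 11 prostaglandin and leukotriene genes higher and 2 lower, and 4 of 8 tryptophan genes higher and 1 lower. Dropping 12-week replicate 2 gave 8 redox genes called higher and 1 lower, 3 prostaglandin genes higher and 2 lower, and 3 tryptophan genes higher. Dropping 9-week replicate 3 gave 6 redox genes higher, 3 prostaglandin genes higher and 1 lower, and 2 tryptophan genes higher.

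Antimicrobial and acute phase genes went both ways, with differences of -4.04 to 4.94 and a median of -0.15 over 22 genes. Lcn2, which binds bacterial siderophores, read 9.80, 5.29 and 10.10 at 12 weeks, against 3.92, 4.21 and 7.37 at 9 weeks (3.23 ± 0.82, adjusted p = 0.0925). Lrg1, an acute phase glycoprotein chosen after its values were seen, read 11.75, 9.37 and 11.94, against 7.28, 8.70 and 10.42 (2.22 ± 0.66). Mptx1, a pentraxin of the colon epithelium, had the lowest difference of the list at 3.39, 11.73 and 5.43, against 11.47, 12.37 and 8.83 (-4.04 ± 1.38, 16.4-fold higher at 9 weeks, adjusted p = 0.135). Its 12-week replicate 2 read above 9-week replicates 1 and 3. Ang4, a microbicidal ribonuclease, was apart on the low side at 8.44, 7.49 and 7.96, against 9.0, 11.77 and 10.32 (-2.40 ± 0.88), and here 12-week replicate 2 was the lowest array. Reg3b and Reg3g, bactericidal lectins, differed by -0.10 ± 0.36 and -0.30 ± 0.66, with all 6 arrays between 12.27 and 13.69. Ang4, Reg3b and Reg3g were chosen after their values were seen. Without 12-week replicate 2, 10 genes of the list were called higher and 5 lower, and without 9-week replicate 3, 8 and 2.

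Genes of mature colonocytes were lower at 12 weeks on the arrays where the inflammatory genes were high. By the unadjusted test 14 of 27 transport genes were lower and 0 higher, and 11 were lower by at least 1 log2 unit, with a median of -0.91. The mean of the list was 8.52, 9.38 and 8.05 at 12 weeks, against 9.71, 9.59 and 9.13 at 9 weeks. Aqp8, a water channel, read 5.47, 10.83 and 6.92, against 10.96, 10.33 and 10.21 (-2.76 ± 0.70, 6.78-fold higher at 9 weeks, adjusted p = 0.0925). Guca2a, which encodes guanylin, a peptide that drives chloride and fluid secretion, read 11.09, 12.45 and 9.24, against 13.19, 12.67 and 12.39 (-1.83 ± 0.45). Slc26a3, the chloride and bicarbonate exchanger, read 10.49, 11.86 and 10.10, against 12.15, 11.82 and 12.11 (-1.21 ± 0.29). For these genes 12-week replicate 2 lay within or near the 9-week values. Only 2 of the 27 members were apart on the low side and 1 on the high side, against 4.29% and 6.46% of all genes. Slc9a3, the sodium and hydrogen exchanger, was among those on the low side at 9.35, 9.47 and 7.85, against 9.90, 9.62 and 10.15 (-1.0 ± 0.40), chosen after its values were seen. With 12-week replicate 2 left out, 16 of 27 were called lower, and without 9-week replicate 3, 10 were.

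Xenobiotic metabolism was the list with the most genes on the low side, 27 of 37 at an unadjusted p under 0.05, against 1 on the high side. Its median was -1.0, and 18 members were lower by at least 1 log2 unit. Cyp2c55, a colonic cytochrome P450, read 7.25, 10.82 and 4.92 at 12 weeks, against 13.14, 12.38 and 8.87 at 9 weeks (-3.80 ± 0.96, 13.9-fold higher at 9 weeks, adjusted p = 0.0922). Cyp2c65 read 8.64, 9.71 and 4.96, against 11.23, 10.75 and 8.61 (-2.43 ± 0.78), and Sult1a1, a phenol sulfotransferase, read 8.65, 11.50 and 6.54, against 11.87, 11.50 and 9.25 (-1.98 ± 0.73). Aldh1a1, a retinal dehydrogenase chosen after its values were seen, was apart at 10.01, 10.16 and 7.96, against 11.02, 10.82 and 10.35 (-1.35 ± 0.37). In the first 3 genes 9-week replicate 3 was the lowest 9-week array by over 2 log2 units. After removal of 12-week replicate 2, 29 of 37 were called lower, and without 9-week replicate 3, 22 were.

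All 16 goblet cell markers had differences below 0, from -1.97 to -0.24, and 13 lay under an unadjusted p of 0.05, but none was apart. Clca1, a secreted mucus protein, read 10.50, 13.07 and 10.42 at 12 weeks, against 13.42, 13.55 and 12.93 at 9 weeks (-1.97 ± 0.43, 3.91-fold higher at 9 weeks, adjusted p = 0.0909). Klk1, tissue kallikrein, read 10.84, 12.76 and 9.29, against 13.28, 12.85 and 11.50 (-1.58 ± 0.50). Muc2, the gel-forming mucin, chosen after its values were seen, read 13.63, 13.78 and 12.50, against 14.13, 13.95 and 13.73 (-0.64 ± 0.21), near the top of the array's range. All 12 enteroendocrine markers were also below 0, 7 of them at an unadjusted p under 0.05. Tph1, which makes serotonin, read 3.78, 6.03 and 3.91, against 7.06, 5.71 and 5.22 (-1.42 ± 0.45). Insl5, a hormone of distal L cells, read 5.31, 9.62 and 7.63, against 9.49, 9.21 and 7.87 (-1.34 ± 0.68), with 12-week replicate 2 the highest of all 6 arrays. In the fit without 12-week replicate 2, 12 goblet and 10 enteroendocrine markers were called lower, and without 9-week replicate 3, 4 and 7.

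A few tuft and stem cell genes separated the ages. The 8 measured tuft cell markers had a median of -0.25, with 6 below 0 and 2 above. At an unadjusted p under 0.05, 3 of them were lower and 0 higher, and 1 was apart, on the low side. Dclk1, a tuft cell kinase, read 4.45, 5.24 and 3.94 at 12 weeks, against 5.80, 5.89 and 5.01 at 9 weeks (-1.03 ± 0.27), and its groups overlapped. Trpm5, a cation channel of tuft cell chemosensing, was apart at 4.40, 4.84 and 4.38, against 5.05, 5.09 and 4.87 (-0.46 ± 0.19), a narrow gap. Lgr5, the receptor that marks crypt stem cells, had one of the 3 smallest adjusted p-values, 0.0684. It read 4.81, 5.71 and 5.22 at 12 weeks, against 6.33, 6.67 and 6.10 at 9 weeks (-1.12 ± 0.20), with no overlap. Axin2, a Wnt target, was apart too at 6.88, 7.10 and 6.77, against 7.67, 7.49 and 7.18 (-0.53 ± 0.14). The stem cell and Wnt list as a whole had a median of -0.06, and by the unadjusted test 2 of 18 were higher and 3 lower, so Lgr5 and Axin2 did not stand for the list. When 12-week replicate 2 was dropped, 2 of the 18 were called higher and 5 lower, and without 9-week replicate 3, 1 and 2.

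Mitochondrial fuel genes had small differences in the low direction. Of 26 genes of fatty acid oxidation and ketogenesis, 18 were lower at an unadjusted p under 0.05, 5 were apart, and the median was -0.40. Ppara, the receptor that drives fatty acid oxidation, read 6.10, 7.01 and 4.48 at 12 weeks, against 8.16, 7.83 and 6.35 at 9 weeks (-1.58 ± 0.50). Ehhadh, a peroxisomal enzyme, read 6.62, 7.72 and 5.99, against 8.44, 8.11 and 7.11 (-1.11 ± 0.31). Hadha and Cpt2, mitochondrial enzymes of the same route chosen after their values were seen, were apart with differences of -0.55 ± 0.17 and -0.29 ± 0.11. The respiratory chain had a median of -0.12, with 5 of 29 apart on the low side, against 4.29% of all genes, and the lowest difference was -0.33. Sterol and lipid synthesis genes had a median of 0.12, and by the unadjusted test 2 of 18 were higher and 0 lower. Without 12-week replicate 2, 17 oxidation and 5 respiratory genes were called lower, and without 9-week replicate 3, 12 and 1.

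Smooth muscle genes were lower at an unadjusted p under 0.05 in 15 of 18, with a median of -0.63 and none apart. Their mean was 9.26, 10.20 and 9.0 at 12 weeks, against 10.45, 10.25 and 9.73 at 9 weeks. Myh11, smooth muscle myosin, read 10.45, 11.36 and 9.76, against 11.86, 11.61 and 10.99 (-0.96 ± 0.24, adjusted p = 0.0922), and Myl9, its light chain, read 10.23, 11.71 and 9.59, against 11.94, 11.77 and 10.97 (-1.05 ± 0.31). Enteric neuron genes were lower in 6 of 16 and higher in 1. The higher gene was Tac1, the precursor of substance P, at 10.75, 9.45 and 11.29, against 8.56, 8.90 and 10.25 (1.26 ± 0.37). Snap25, a protein of synaptic release, read 5.09, 5.92 and 4.89, against 6.44, 6.45 and 5.57 (-0.85 ± 0.27). Kit, which marks pacemaker and mast cells, read 6.82, 8.05 and 6.13, against 8.68, 8.40 and 7.42 (-1.17 ± 0.38). With 12-week replicate 2 left out, 16 muscle genes were called lower, and without 9-week replicate 3, 15 were. How much muscle wall and how much mucosa each homogenate held was not tested.

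Endothelial genes had a median of 0.26, with 5 of 19 higher at an unadjusted p under 0.05, among them the leukocyte adhesion molecules Selp, Icam1 and Vcam1. Selp, P-selectin, read 7.02, 4.25 and 5.91 at 12 weeks, against 3.76, 3.70 and 4.35 at 9 weeks (1.79 ± 0.38, adjusted p = 0.0909). Icam1 read 8.40, 6.58 and 9.02, against 5.58, 6.29 and 7.60 (1.51 ± 0.49), and Vcam1 read 7.79, 6.55 and 8.24, against 5.48, 6.43 and 7.01 (1.22 ± 0.34). Dropping 12-week replicate 2 gave 8 endothelial genes called higher, and dropping 9-week replicate 3 gave 3. Fibroblast markers had a median of -0.02, with 3 of 11 higher. Epithelial junction genes had a median of -0.11, with 2 of 23 higher and 5 lower.

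All 30 cell cycle and DNA replication genes had differences at or above 0, but small ones, with a median of 0.28, 6 of them at an unadjusted p under 0.05 and none apart. Rrm2, a subunit of ribonucleotide reductase, read 10.03, 8.51 and 10.55 at 12 weeks, against 8.19, 8.34 and 9.59 at 9 weeks (0.99 ± 0.36). Mki67, the proliferation antigen, chosen after its values were seen, read 10.80, 10.30 and 10.84, against 10.34, 10.38 and 10.64. The fit without 12-week replicate 2 called 10 of the 30, and that without 9-week replicate 3 called 2. Genes of the unfolded protein response had a median of 0.11, with 4 of 24 higher and 1 lower. Trib3, a target of the stress factor CHOP, read 6.54, 4.30 and 5.54, against 4.27, 4.10 and 4.56 (1.15 ± 0.30). Immediate early genes had a median of 0.16, with 5 of 19 higher and 3 lower, and EGF receptor and ligand genes one of 0.02, with 1 of 10 higher and 3 lower. Pattern recognition receptors had a median of 0.21, with 6 of 14 higher, and inflammasome and gasdermin genes one of -0.01. Gsdmc2, a gasdermin of the colon epithelium, read 6.32, 10.69 and 6.62, against 10.92, 11.18 and 9.78 (-2.75 ± 0.67, adjusted p = 0.0909).

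Clock genes follow the hour of the day. Their median was -0.06, and 2 of 19 were higher at an unadjusted p under 0.05. Arntl, the clock activator, read 7.38, 8.24 and 7.17 at 12 weeks, against 8.28, 8.14 and 7.81 at 9 weeks (-0.48 ± 0.33). Per1, a clock repressor, read 6.13, 5.38 and 6.08, against 5.34, 5.40 and 5.37 (0.49 ± 0.28).

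Markers of neighbouring tissues were read as well, and whether such tissue was in the samples was not tested. Pancreatic acinar genes had a mean of 4.66, 5.28 and 6.08 at 12 weeks, against 5.31, 5.25 and 4.89 at 9 weeks, over 13 genes. Cpb1, a pancreatic carboxypeptidase, read 3.11, 3.24 and 6.72, against 3.11, 3.14 and 3.18, and Ctrb1, chymotrypsinogen, read 3.83, 3.81 and 6.58, against 3.51, 3.59 and 3.75. These 2 proenzymes were thus high on 12-week replicate 3 alone, while 10 of the 13 members had differences above 0 and 3 below. The lowest was that of Sycn, which encodes syncollin, a zymogen granule protein, at 6.49, 11.23 and 6.41, against 11.19, 10.55 and 8.52 (-2.04 ± 0.83), a pattern unlike that of the proenzymes. Adipocyte genes had a mean of 6.15, 7.40 and 6.04, against 7.81, 5.54 and 6.59, and Adipoq, adiponectin, read 6.12, 8.28 and 6.51, against 8.59, 3.36 and 7.05, with no order by age. Means of skeletal muscle genes lay between 4.11 and 4.30 at 12 weeks, against 4.15 and 4.27 at 9 weeks, and those of red blood cell genes between 3.24 and 3.52, against 3.23 and 3.35. Small intestinal genes had a median of -0.26, with 2 of 8 lower at an unadjusted p under 0.05. Hoxd13, a gene of the distal colon and rectum, read 5.16, 8.26 and 9.09, against 7.25, 8.17 and 4.68, with no order by age. The part of these tissues in the differences above was not tested. None of the 4 measured sex-linked genes was higher at an unadjusted p under 0.05, and 1 was lower, Kdm5d, at 7.55, 7.99 and 7.16, against 8.0, 8.08 and 7.96.

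Among the 22 higher and 12 lower genes that were apart and differed by at least 1 log2 unit were list members given above, such as Il11, Ngp, Ccl5, Lgr5 and Il22ra2. The others named here were chosen after their values were seen. Klra2, a receptor of the Ly49 family of natural killer and myeloid cells, had the smallest unadjusted p of all genes. It read 4.45, 3.91 and 5.22 at 12 weeks, against 2.68, 3.14 and 3.52 at 9 weeks (1.41 ± 0.23, adjusted p = 0.0684). Lbp, which carries bacterial lipopolysaccharide to its receptor, read 7.38, 6.33 and 8.03, against 5.56, 5.78 and 6.13 (1.43 ± 0.28). Wfdc17 read 8.98, 7.62 and 9.61, against 6.99, 6.99 and 7.55 (1.56 ± 0.33), and Clec5a, a myeloid lectin receptor, read 4.92, 3.67 and 6.16, against 3.11, 3.39 and 3.65 (1.54 ± 0.39). F13a1, the clotting factor XIII chain that macrophages make, read 7.62, 7.32 and 7.46, against 7.03, 6.13 and 5.96 (1.10 ± 0.28), with 12-week arrays close together. Also on the high side were Pla1a, Reg2, Ces2f, Steap2, Ctla2b, Sox11, Stfa2l1 and Jdp2, with differences of 1.01 to 1.42.

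On the low side, Abhd3, a lipase of membrane phospholipids, read 5.64, 5.96 and 4.44 at 12 weeks, against 7.49, 7.33 and 6.0 at 9 weeks (-1.60 ± 0.40). Chp2, a partner of sodium and hydrogen exchangers, read 6.71, 8.59 and 6.68, against 8.94, 8.61 and 8.67 (-1.41 ± 0.32), a narrow gap set by 12-week replicate 2. Grpr, the gastrin-releasing peptide receptor, read 4.02, 5.07 and 4.20, against 5.65, 6.10 and 5.40 (-1.29 ± 0.30). Bex1 read 6.30, 7.34 and 6.52, against 8.0, 7.58 and 7.58 (-1.0 ± 0.20, adjusted p = 0.0772). Slc3a1, Capn9, Peli2 and Sptssb were also on this side, with differences of -1.32 to -1.01.

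The change between 9 and 12 weeks in SPF knockouts was next set against the change in wild types, whose arrays it does not share. No gene passed an adjusted p of 0.05 (0 of 18193, 0%), with a smallest adjusted p of 0.0881. At an unadjusted p under 0.05 there were 2416 genes (13.3%), of which 1255 had the higher change in SPF knockouts (6.90%) and 1161 the lower (6.38%). Over all genes the wild types had a median difference of 0.0. S100a8 differed between the ages by 4.89 in SPF knockouts and by 0.31 in wild types, and Aqp8 by -2.76 and -0.43. Klra2 differed by 1.41 and -0.17, Il11 by 1.81 and -0.22, and Lgr5 by -1.12 and 0.09. For these 3 genes the differences of change were 1.58 ± 0.33 (adjusted p = 0.182), 2.03 ± 0.44 (adjusted p = 0.186) and -1.21 ± 0.28 (adjusted p = 0.208). MHC class II had medians of 0.65 in SPF knockouts and -0.31 in wild types. Of its 10 genes, 7 had the higher change in SPF knockouts at an unadjusted p under 0.05, as did 18 of 25 macrophage markers and 9 of 17 neutrophil markers. On the low side were 21 of 37 xenobiotic genes and 12 of 26 genes of fatty acid oxidation. Without 12-week SPF replicate 2, 1823 genes were called, without 9-week SPF replicate 3, 12, and without any 1 of the other 10 arrays at most 6.

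Against conventional knockouts the difference of change passed the threshold in 3387 genes (18.6%), 1944 with the higher change in SPF knockouts (10.7%) and 1443 with the lower (7.93%). In 1930 of the 1944 the SPF difference lay above 0 and the conventional difference below 0, and in 1439 of the 1443 it was the reverse. The conventional difference was the larger in 1459 of the 1944. The SPF difference on its own passed the threshold in no gene. S100a8 differed by 4.89 in SPF knockouts and by -6.77 in conventional knockouts, whose arrays read 3.43, 3.56 and 3.46 at 12 weeks, against 10.55, 11.08 and 9.14 at 9 weeks. The difference of change was 11.66 ± 1.58 (adjusted p = 0.000552). Cxcl5 differed by 3.24 and -5.32 (difference of change 8.56 ± 1.23), Lcn2 by 3.23 and -4.0 (7.23 ± 1.17), and Sprr2h, a small proline-rich protein of stressed epithelium, by 3.02 and -4.53 (7.55 ± 1.21). On the other side stood Mptx1, with -4.04 and 5.97 (difference of change -10.0 ± 1.95, adjusted p = 0.00264). Tgm3, a transglutaminase, had -2.26 and 3.86 (-6.12 ± 1.34), Sycn, of the pancreatic acinar list, -2.04 and 3.80 (-5.85 ± 1.18), and Hao2, a peroxisomal oxidase, -2.60 and 2.03 (-4.62 ± 0.92).

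By list, the change was higher in SPF knockouts, at an adjusted p under 0.05, in all 10 interferon-inducible GTPases and 21 of 25 macrophage markers. This held for 12 of 17 neutrophil markers, 6 of 8 genes of the neutrophil chemokine list and 6 of 10 MHC class II genes. Gbp2 had a difference of change of 3.21 ± 0.55 and Cd74 one of 1.99 ± 0.52. It was lower in 25 of 37 xenobiotic genes, 16 of 27 transport genes, 13 of 18 smooth muscle genes, 8 of 16 goblet cell markers and 7 of 12 enteroendocrine markers. Cell cycle genes had the higher change in 16 of 30, with medians of 0.28 in SPF knockouts and -0.60 in conventional knockouts. Among type I interferon genes 5 of 25 had the higher change, Zbp1 with 1.97 ± 0.32. In these lists the median difference of conventional knockouts had the opposite sign to that of SPF knockouts, apart from the type I interferon genes, where both were below 0 (-0.08 in SPF knockouts and -0.63 in conventional knockouts). The 5 measured markers of distal colon and rectum had medians of 1.63 in conventional knockouts, 0.07 in SPF knockouts and -0.58 in wild types. Their mean on the conventional arrays was 7.72, 7.49 and 6.41 at 12 weeks, against 5.27, 6.67 and 6.4 at 9 weeks. In 1 of these 5 genes the change was called lower in SPF knockouts, and in 0 higher. The part of the colon region sampled in the differences of change was not tested. With 12 arrays of the 4 groups alone in the fit, 26 genes were called in place of 3387. Without 12-week SPF replicate 2, 5494 were called, and without 12-week SPF replicates 1 or 3, 9-week SPF replicates 1 or 2, or conventional 9-week replicate 1, between 1562 and 1901.

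**Figure D5:**
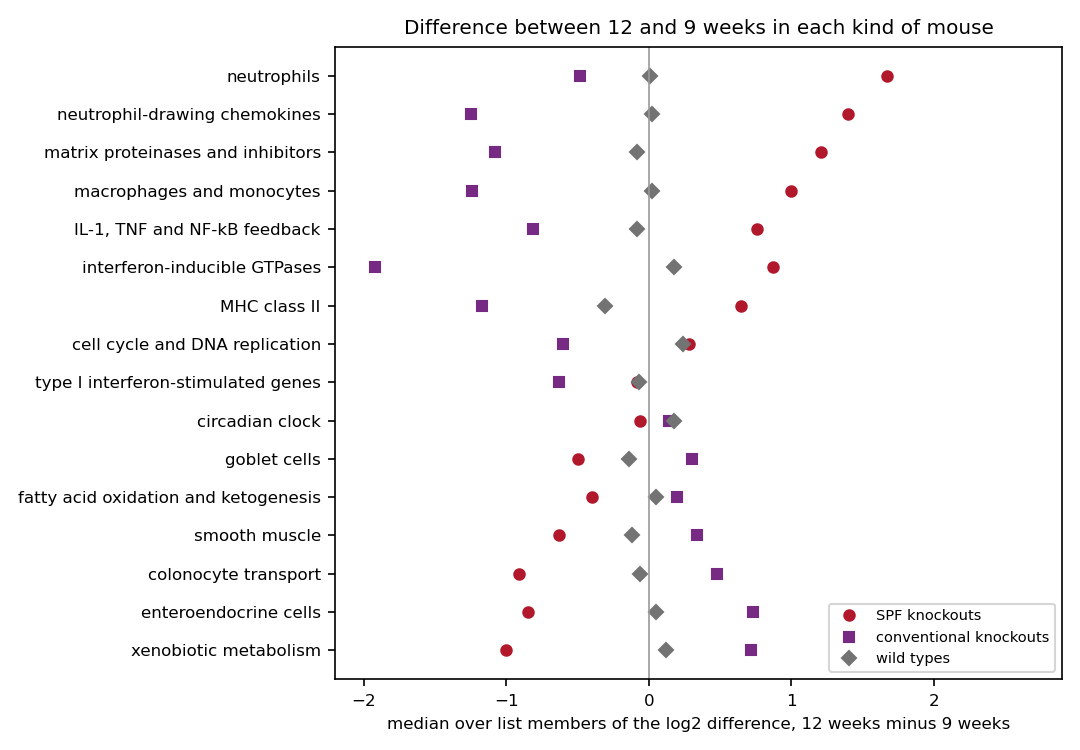
Median over the members of 16 gene lists of the log2 difference between 12 and 9 weeks (horizontal axis) in SPF knockouts (red circles), conventional knockouts (purple squares) and wild types (grey diamonds). Neutrophil markers stand at 1.67 in SPF knockouts, -0.48 in conventional knockouts and 0.01 in wild types, and xenobiotic genes at -1.0, 0.72 and 0.12.

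Probe sets of gene families with near-identical members, such as Gbp6, Cyp2c55, Sprr2h, Gsdmc2, Klra2, Mptx1 and Ang4, may bind transcripts of relatives, which was not tested.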

How the data were processed

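RNA from full-thickness mouse colon was hybridised to 27 Affymetrix mouse arrays, 1 array per sample, in 9 groups of 3. The deposited log2 values had been normalized by the authors with affyPLM, per the series' design text. The version, the background step and the summary method are not stated in the sources used here. That text names a rat array, whereas the probe sets annotate to mouse genes. The authors had picked replicates on the length and damage of the colon, which can move the spread within groups.

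Of 45101 probe sets, the gene table omits 64 controls, 932 that name several genes and 9160 that name no gene. The remaining 34945 gave 18193 genes, of which 9010 had more than 1 probe set, and the probe set with the highest mean was kept. The annotation can be old, and 18032 genes matched RefSeq by Entrez identifier. With limma 3.58.1 in R 4.3.3, 9 group means were fitted to all 27 arrays (18 residual degrees of freedom). P-values were moderated by eBayes and adjusted by Benjamini-Hochberg over 18193 genes at 0.05. All adjusted p-values in the text are limma's and are 2-sided. They set a difference against 1 spread per gene pooled over the 9 groups, which may be partly technical. Genes that varied more within the SPF groups can thus have an SE and a p-value that are too small. Aqp8, with an SE of 0.70, had standard deviations of 2.77 at 12 weeks and 0.40 at 9 weeks in SPF knockouts. In wild types they were 0.25 and 0.02. The fit was tested on simulated data with independent noise and the same spread in every group. That setting does not cover unequal spreads or arrays that stand apart over many genes, as in the SPF groups.

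Tissue and pathway lists (57 lists, 850 of 926 genes measured) and the comparison itself were chosen with earlier results of these data known. Genes named are called members, the uncalled members of each list with the largest differences, the largest differences of change from conventional knockouts, and Il10. Other genes are said to be chosen after their values were seen. Alternatives were array weights, an intensity trend, other probe set rules, normalization again, centring, a filter on the 40% of genes with the lowest mean, a replicate block, fits to the compared groups only, and each array left out. The number of arrays limits the precision. Promoter sequences came from RefSeq.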

Additional observations from a re-analysis of the deposited data

Results flagged for a closer look

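The change between 9 and 12 weeks differed between SPF and conventional knockouts, by limma's test of the difference itself, in 3387 genes, and values are given here for 23 of them. Values are the SPF change minus the conventional change on the log2 scale. Among genes of neutrophils and their chemokines the values were 11.66 for S100a8, 11.3 for S100a9, 8.56 for Cxcl5 and 6.34 for Cxcl2. Among acute phase and epithelial stress genes the values were 7.55 for Sprr2h, 7.23 for Lcn2 and 6.46 for Lrg1. For cytokines and a matrix proteinase they were 6.15 for Il1b, 2.7 for Il11 and 5.35 for Mmp10. In the interferon gamma arm the values were 4.65 for Ifng, 5.93 for Cxcl9, 3.21 for Gbp2 and 1.99 for Cd74. Zbp1, from the list of type I interferon-stimulated genes, had 1.97. Values below 0 were found for Mptx1 (-10.0), Tgm3 (-6.12), Sycn (-5.85), Cyp2c55 (-5.73), Hao2 (-4.62), Aqp8 (-4.38), Clca1 (-3.39) and Lgr5 (-1.34).

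In conventional knockouts these genes ran the other way between the ages, except that Lgr5 was nearly level there, at 6.20, 6.41 and 6.60 at 12 weeks, against 5.85, 6.27 and 6.45 at 9 weeks. Mptx1 read 12.12, 11.99 and 12.01 at 12 weeks in conventional knockouts, against 3.63, 5.33 and 9.26 at 9 weeks. Il1b read 5.08, 5.11 and 4.79 there at 12 weeks, against 9.22, 8.67 and 6.75 at 9 weeks. In both genes conventional knockouts were thus wide apart in themselves at 9 weeks and close together at 12 weeks.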

How the results depend on the processing

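With 3 arrays a group, sample number limits every result. Array weights gave 6288 called genes between 12-week and 9-week SPF knockouts, in place of 0, 2768 for the difference from the wild-type change, in place of 0, and 7903 for the difference from the conventional change, in place of 3387. For SPF replicates 1, 2 and 3 the weights were 1.52, 0.193 and 0.45 at 12 weeks, and 0.864, 5.85 and 0.344 at 9 weeks. These fits thus gave little weight to the arrays that stood apart and the most to 9-week replicate 2. Leaving out 1 array at a time gave 0 to 3593, 0 to 1823 and 1562 to 5494 genes for these 3 counts. The high ends came without 12-week SPF replicate 2. For the conventional comparison, all non-control probe sets gave 5390 calls (probe sets, not genes), a minimum log2 difference of 1 gave 1478, and the 12 arrays compared gave 26. The cause of these shifts was not tested. The other alternatives without a replicate block left the first 2 counts at 0 and the third between 3244 and 3467.

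Same-numbered SPF arrays had correlations of deviations from their group means of -0.34, 0.41 and 0.56. Not every array went best with its own number. With 3 arrays a group, including those that stood apart, these correlations cannot settle whether replicate numbers pair the samples. With a replicate block over all arrays the 3 counts were 0, 0 and 3411, and with the block in the compared arrays alone they were 0, 0 and 0. By the naming rule or after their values were seen, 223 genes were picked, not all of them given above. Of these, 208 kept the sign of their SPF difference in every alternative that held them. The other 15 changed it in at least 1, with no call on either side of the change. The filter on the lowest means kept 162 of the 223. Array weights called 179 of the 223, and the fits without 12-week replicate 2 or 9-week replicate 3 called 174 and 129.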
